A study of Rattus norvegicus with 10 samples.

Results

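In the prefrontal cortex (PFC) of rats taken 24 h after footshock (FS), 178 probe sets had a lower value in each of the 5 FS rats than in any of the 5 control rats. A probe set is the group of probes on an array that reads 1 transcript. Members were taken from the 18304 probe sets that carry exactly 1 gene symbol and have a mean above 4 over the 10 arrays, and a probe set was kept where its highest FS value lay below its lowest control value. The 178 members stand for 174 of the 16941 genes tested, and they make up 0.972% of the probe sets tested. The same count in the opposite direction, with every FS rat above every control, was also 178 (0.972%). Without control replicate 5 the counts were 361 lower and 617 higher. The values of these 10 arrays chose the members, so their differences are given as a description and carry no test.

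FS rats were adult male Sprague–Dawley animals that received inescapable shocks of 0.8 mA in 1 session of 40 min, with 20 min of actual shock, went back to their home cages and were killed 24 h after the session began. Control rats, of the same strain and sex, stayed in their home cages and received no shock. RNA of bulk PFC tissue was hybridised to whole-transcript arrays, with 1 array for each of 5 FS rats and 5 controls, and the study asked how the transcriptome of this region changes after an acute stress. The deposited values are log2 values after robust multi-array average (RMA) normalization, and all differences below are FS minus control on that log2 scale.

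Genes of several cellular systems recur among the members. Messenger RNA is spliced in the nucleus by small nuclear ribonucleoproteins (snRNPs), which mark the ends of introns, together with SR proteins and heterogeneous nuclear ribonucleoproteins (hnRNPs), which steer the choice of exons. Chromatin modifiers write and erase methyl groups on histones or move nucleosomes, and so set which genes can be read. Clustered protocadherins are adhesion molecules that neurons express in varied combinations and that give each neuron a surface identity. Norrin, the product of Ndp, is a secreted ligand that activates Wnt signalling through the receptor Frizzled-4 in the vessels of retina and brain.

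The promoters of 4 members with a wide gap between the groups are shown because their genes have different roles and because the promoters differ in the number of CG dinucleotides, which are printed in capitals. Each runs from 250 bases before to 50 bases after the start of the gene, read 5′ to 3′ on the gene's own strand, from RefSeq on the assembly GRCr8. The order is Ndp (chrX:8379319-8379618, plus strand), the ubiquitin ligase gene Rnf135 (chr10:65668191-65668490, plus strand), the splicing gene Snrpa (chr1:91617993-91618292, minus strand) and the replication gene Mcm7 (chr12:22163129-22163428, minus strand).
Ndp: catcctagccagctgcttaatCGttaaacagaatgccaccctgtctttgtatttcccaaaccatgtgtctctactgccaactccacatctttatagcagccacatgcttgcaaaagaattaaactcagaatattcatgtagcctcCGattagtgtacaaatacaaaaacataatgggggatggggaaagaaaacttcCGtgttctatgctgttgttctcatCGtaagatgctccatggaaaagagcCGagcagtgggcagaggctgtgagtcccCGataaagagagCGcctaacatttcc
Rnf135: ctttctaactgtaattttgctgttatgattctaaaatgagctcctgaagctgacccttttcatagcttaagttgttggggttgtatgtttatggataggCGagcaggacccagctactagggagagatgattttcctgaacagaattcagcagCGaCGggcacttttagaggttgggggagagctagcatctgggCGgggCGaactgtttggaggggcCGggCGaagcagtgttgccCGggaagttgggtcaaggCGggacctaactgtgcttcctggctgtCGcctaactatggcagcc
Snrpa: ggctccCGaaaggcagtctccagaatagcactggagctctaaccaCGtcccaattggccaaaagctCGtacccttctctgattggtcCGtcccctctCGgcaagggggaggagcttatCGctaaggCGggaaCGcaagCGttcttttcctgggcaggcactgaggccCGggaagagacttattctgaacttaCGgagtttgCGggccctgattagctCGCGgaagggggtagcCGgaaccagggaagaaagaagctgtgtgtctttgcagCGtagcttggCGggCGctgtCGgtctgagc
Mcm7: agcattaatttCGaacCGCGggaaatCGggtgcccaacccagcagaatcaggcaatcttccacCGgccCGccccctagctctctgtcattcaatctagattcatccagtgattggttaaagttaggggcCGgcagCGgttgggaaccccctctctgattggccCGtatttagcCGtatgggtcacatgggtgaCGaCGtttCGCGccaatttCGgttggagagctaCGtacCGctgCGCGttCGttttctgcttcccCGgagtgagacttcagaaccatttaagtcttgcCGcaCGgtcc
The window of Ndp holds 7 CG dinucleotides and that of Rnf135 holds 10, whereas Snrpa has 19 and Mcm7 has 23. The window of Ndp also holds TTTATA, which is the TATA box (TATAAA) on the other strand, and TGTTCT, a short sequence that the glucocorticoid receptor recognises. Such matches describe the letters alone.

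The levels of Camk2a and Slc17a7 are given first, and they cannot show that the dissection was the same in all rats. Camk2a, a kinase of excitatory synapses, had a mean of 13.19 in FS rats and 13.20 in controls, and Slc17a7, the cortical vesicular glutamate transporter, had 12.29 in FS rats and 12.25 in controls. The median of all tested probe sets lay between 7.82 and 7.85 in FS rats and between 7.83 and 7.87 in controls, and any pair of arrays correlated at 0.994 to 0.997. FS replicate 2 stood apart for choroid plexus and ependymal markers, whose centred mean was 1.63 in that rat, -0.29 to 0.15 in the other FS rats and -0.31 to -0.10 in controls. Markers of striatal medium spiny neurons varied widely between rats of both groups. Their centred mean ran from -0.53 to 0.21 in FS rats and from -0.50 to 0.49 in controls. In bulk tissue, fewer cells of a type and less RNA per cell cannot be told apart. The precision is limited by the number of arrays, 5 per group.

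No probe set passed limma with Benjamini–Hochberg adjustment (adjusted p ≤ 0.05), so 0 of 18304 (0%) and 0 of the 178 members were called. The smallest adjusted p was 0.186. Before adjustment, limma gave p under 0.05 for 749 probe sets lower in FS rats (4.09%) and for 1053 higher ones. The members are therefore a set defined by the lack of overlap between rats and not by a statistical call. They also depended on how the arrays were scaled. When the array medians were set equal, 123 of the 178 were still separated, and 136 probe sets were lower and 218 higher in every FS rat (0.743% lower). After quantile normalization of the tested probe sets, 94 of the 178 were still separated, with 143 lower (0.781%) and 172 higher. Under both scalings 85 remained, and the mean difference was negative in all 178 under each. Centring moves every difference by the same small amount, so it could not reverse a sign. The smallest member difference went from -0.034 to -0.024.

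Their differences were small. The median member was lower by 0.13 on the log2 scale, which is 8.53% on the linear scale, and the members ran from -0.37 (22.6% lower) to -0.034 (2.32% lower). Of the 178 members, 138 had a difference below -0.1, 19 a difference below -0.2 and 2 a difference below -0.3. The median difference over all tested probe sets was 0.00044. Large differences were mostly found elsewhere, because 150 tested probe sets lay at or below -0.2 and 19 of them were members, and the 10 most negative differences included 0 members. What the members shared was a small spread between rats, with a median within-group SD of 0.051, against 0.084 over the tested probe sets. A small spread is favoured by the rule itself.

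**Figure D1:**
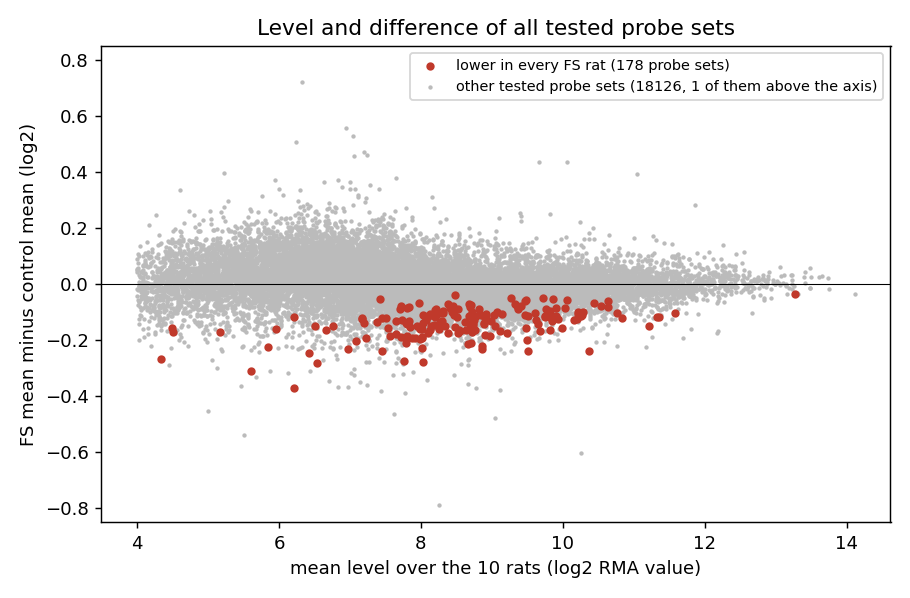
Each point is 1 probe set, with its mean level over the 10 rats (log2 RMA value) on the x axis and the FS mean minus the control mean (log2) on the y axis, for the 178 members (red) and the other tested probe sets (grey, 1 of them above the axis). The members lie between -0.37 and -0.034, and many grey points are lower.

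The gap between the lowest control and the highest FS rat was narrow in most members, with a median of 0.017 and a maximum of 0.160. It reached 0.01 in 121 members, 0.05 in 24 and 0.1 in 4. Just inside the threshold lay Pnma2, with its highest FS value at 9.2182 and its lowest control value at 9.2184 (gap 0.00027), followed by Mfge8 (gap 0.00054), Srsf9 (0.0012), Tnrc18 (0.0013) and Ankib1 (0.0013). Just outside it lay the olfactory receptor gene Or14n1 (gap -8.6e-06), Trip13 (-0.00094), Eif5b (-0.0011), Rraga (-0.0012) and Ccdc162 (-0.0018). Trip13 and Ccdc162 had differences of -0.19 and -0.21, larger in size than that of the median member.

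The widest gap belonged to Rps27, which encodes a protein of the small ribosomal subunit. Its values were 6.11, 5.99, 5.997, 5.92 and 6.11 in FS rats, against 6.74, 6.27, 6.27, 6.36 and 6.34 in controls. The groups were separated by 0.160, and control replicate 1 stood above the other controls. Both scalings kept the gap (0.160 and 0.186). The means were 6.03 ± 0.080 in FS rats and 6.40 ± 0.19 in controls (SD, n = 5 each), a difference of -0.37, or -0.29 without control replicate 1. A gene family with many near-identical copies can share probes, and the level of this probe set is therefore uncertain as a measure of 1 gene.

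Ndp had values of 8.80, 8.65, 8.77, 8.77 and 8.78 in FS rats, against 9.01, 8.95, 8.98, 8.997 and 8.95 in controls. Every control lay at 8.95 or above, and FS replicate 2, the rat with high choroid plexus markers, was the lowest of the 10. The means were 8.76 ± 0.059 in FS rats and 8.98 ± 0.028 in controls (SD, n = 5 each), and the difference was -0.22. The other FS rats lay between 8.77 and 8.80, which is also below all controls. Ndp was the single member among the 63 tested probe sets of a list of norrin and Wnt genes, and 1 other probe set of that list was higher in every FS rat.

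Rnf135 encodes the ubiquitin ligase Riplet, which is needed to activate the RNA sensor RIG-I. Its member probe set had 7.71, 7.58, 7.55, 7.66 and 7.64 in FS rats, against 7.90, 7.85, 7.88, 8.04 and 7.84 in controls. The controls lay close together apart from replicate 4, and the difference was -0.27. The gene has another tested probe set with values of 6.99, 7.12, 7.02, 6.72 and 6.98 in FS rats, against 7.25, 7.23, 7.54, 7.47 and 7.09 in controls, which is lower still in its mean (-0.35) but overlaps by 0.036 between FS replicate 2 and control replicate 5. A further one had 7.15, 7.08, 7.14, 7.24 and 6.85 in FS rats, against 6.99, 6.76, 7.04, 6.91 and 7.35 in controls, with groups that overlap throughout and a difference of 0.077. The probe sets of this gene therefore did not all point the same way. Among 49 tested probe sets of the RIG-I and interferon list, Rnf135 was the only member, with 36 of the 49 below 0 and a list median of -0.050, where 49.7% of all tested probe sets lay below 0.

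Cyp2j3, a cytochrome P450 that converts arachidonic acid to epoxides, completed the 4 members with a gap of at least 0.1, all of which kept a gap of at least 0.1 under both scalings. Its values were 7.85, 7.93, 7.91, 7.78 and 7.97 in FS rats, against 8.13, 8.26, 8.09, 8.26 and 8.08 in controls. The difference was -0.28, with FS replicate 4 lowest and with control replicates 2 and 4 highest. Among the 39 probe sets of the arachidonic acid list, 1 was a member and 1 was higher in every FS rat, and the list median was 0.0076.

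**Figure D2:**
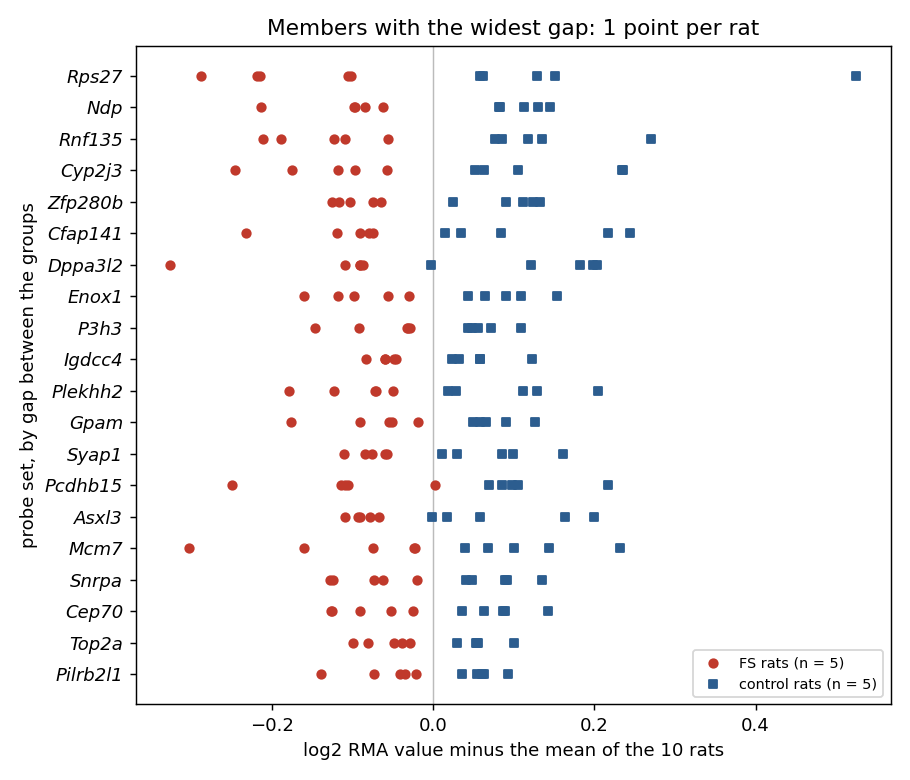
The 20 members with the widest gap are shown from top to bottom, with the log2 RMA value of each rat minus the mean of the 10 rats on the x axis, for FS rats (red circles, n = 5) and controls (blue squares, n = 5). Red and blue points do not overlap in any row, by the rule, and control replicate 1 of Rps27 lies far to the right of the rest.

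Further members with wide gaps came from unrelated families. The zinc finger gene Zfp280b had 7.16, 7.13, 7.11, 7.10 and 7.17 in FS rats, against 7.25, 7.35, 7.36, 7.34 and 7.32 in controls. The cilium and flagellum gene Cfap141 had 7.38, 7.38, 7.34, 7.22 and 7.36 in FS rats, against 7.67, 7.70, 7.47, 7.54 and 7.49 in controls. The Dppa3-like gene Dppa3l2 had 6.45, 6.45, 6.22, 6.45 and 6.43 in FS rats, against 6.74, 6.74, 6.72, 6.54 and 6.66 in controls. FS replicate 4 was the lowest rat in Cfap141 and FS replicate 3 the lowest in Dppa3l2, and control replicate 1 of Zfp280b and control replicate 4 of Dppa3l2 were the controls nearest to the FS rats. Their differences were -0.19, -0.24 and -0.28.

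Metabolic and extracellular matrix enzymes were also among the wide gaps. Gpam, the mitochondrial enzyme that begins glycerolipid synthesis, had 9.94, 9.90, 9.94, 9.82 and 9.97 in FS rats, against 10.04, 10.06, 10.05, 10.08 and 10.12 in controls, a difference of -0.16. Enox1, a hydroquinone and NADH oxidase of the cell surface, had 7.69, 7.65, 7.75, 7.78 and 7.71 in FS rats, against 7.96, 7.92, 7.87, 7.85 and 7.90 in controls, a difference of -0.18. P3h3, of the family of prolyl hydroxylases that modify collagen, had 8.89, 8.96, 8.95, 8.95 and 8.84 in FS rats, against 9.06, 9.04, 9.10, 9.03 and 9.03 in controls, a difference of -0.13. In P3h3 and Gpam the controls lay closer together than the FS rats did. P3h3 was no longer separated after quantile normalization, where its groups overlapped by 0.026, while Gpam and Enox1 stayed separated.

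The remaining wide gaps included Igdcc4 (-0.12), an immunoglobulin superfamily receptor, Plekhh2 (-0.20), Syap1 (-0.15), Asxl3 (-0.18), which encodes a Polycomb-associated protein, Cep70 (-0.17), a centrosome gene, and Pilrb2l1 (-0.12), of the paired immunoglobulin-like receptors. Asxl3 and Cep70 overlapped between the groups after quantile normalization. Igdcc4 had closely spaced FS rats, at 8.15, 8.11, 8.15, 8.14 and 8.14, against 8.22, 8.23, 8.32, 8.25 and 8.25 in controls.

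Splicing factors made up a visible part of the members. Of 111 tested probe sets in a list of mRNA splicing genes, 8 were members (7.21%, against 0.972% over all probe sets) and 0 were higher in every FS rat. The median level of this list was 8.96 (log2 RMA value). Of all tested probe sets with a level between 8 and 10, 1.71% were lower and 0.304% higher in every FS rat. Of the 111, 92 had a negative difference, and the list median was -0.040. Over all tested probe sets 49.7% had a negative difference, a share that is not matched to the level of the list. The count rested on the scaling, with 7 probe sets of the list separated after centring on the median (6.31%), 5 of them members, and 2 after quantile normalization (1.80%), namely the members Prkrip1 and Srsf9. The members were Snrpa and Snrnp70, both of the U1 snRNP that recognises the start of an intron, Prpf3 of the tri-snRNP, Sf3b2 of the U2 snRNP, the SR protein gene Srsf9, the hnRNP genes Hnrnpa1 and Hnrnpl, and Prkrip1, a spliceosomal component.

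Snrpa had 8.69, 8.63, 8.63, 8.74 and 8.68 in FS rats, against 8.80, 8.80, 8.85, 8.89 and 8.84 in controls. Its groups were 0.060 apart, with FS replicate 4 the closest to the controls, and its difference was -0.16, but after quantile normalization they overlapped by 0.0055. Snrnp70 had 10.13, 10.14, 10.19, 10.18 and 10.14 in FS rats, against 10.25, 10.26, 10.23, 10.22 and 10.36 in controls, with FS rats close together and a difference of -0.11. Prkrip1 had 8.01, 7.91, 7.89, 7.84 and 7.95 in FS rats, against 8.11, 8.06, 8.12, 8.08 and 8.16 in controls, and its difference of -0.19 was the most negative of the 8. In Prpf3 (-0.15) FS replicate 4 lay at 7.90 and the other FS rats at 8.09 to 8.13, so that 1 rat carried part of the mean difference. Sf3b2 (-0.075) was nearly the same in all FS rats, at 8.67, 8.67, 8.66, 8.66 and 8.66, against 8.73, 8.70, 8.68, 8.86 and 8.73 in controls. For Hnrnpa1, a gene with many processed copies in the genome, the member probe set had a difference of -0.077 and the other tested ones had -0.082 and -0.069, with groups that overlapped slightly.

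Outside the list, Snupn, which encodes the adaptor that imports assembled snRNPs into the nucleus, had 8.64, 8.52, 8.51, 8.50 and 8.62 in FS rats, against 8.75, 8.93, 8.65, 8.81 and 8.72 in controls. Control replicate 3 was closest to the FS rats, and the difference was -0.21. With the splicing regulator Sfswap (-0.097), Safb, Khdc4 and Gpatch2, 13 members were assigned to splicing and snRNP biogenesis, with differences between -0.21 and -0.075. The 91 tested probe sets of the list of RNA polymerases and general transcription factors held 0 members. A few regulators of transcript elongation were members all the same, among them Cdk12, Paf1, Aff1 and Ice1, as were Bdp1 and Polr3gl of the RNA polymerase III system, and the 6 genes ranged from -0.16 to -0.058. The groups overlapped under both scalings for Paf1, Aff1, Ice1 and Bdp1, as they did for Gpatch2, and after quantile normalization for Cdk12.

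Chromatin genes were the largest role, with 21 member probe sets of 18 genes. In a list of chromatin modifiers, 6 of 113 tested probe sets were members (5.31%, against 0.972% over all probe sets) and 0 were higher in every FS rat. The median level of this list was 8.89, also in the range from 8 to 10. Of the 113, 82 were below 0 (49.7% over all tested probe sets, not matched for level), and the median difference was -0.032. With arrays centred on the median 2 probe sets of the list were separated, and after quantile normalization 3. Smarcc2 was the single member of the 6 that was separated under both. The 6 were the histone methyltransferase genes Dot1l (-0.098) and Nsd3 (-0.11), the histone demethylase genes Kdm4a (-0.14) and Kdm5c (-0.038), the nucleosome remodeller Chd1 (-0.052) and Smarcc2 (-0.10), a core subunit of the SWI/SNF complex. Kdm5c, which was separated under neither scaling, shows how small a separated difference could be, with 8.47, 8.46, 8.47, 8.46 and 8.46 in FS rats, against 8.54, 8.51, 8.48, 8.49 and 8.48 in controls. The 5 FS rats were nearly equal, and the lowest control was 0.0077 above the highest of them.

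DNA topoisomerases belonged to the same role. Top2a, the type II enzyme of dividing cells, had 6.17, 6.16, 6.12, 6.10 and 6.18 in FS rats, against 6.30, 6.26, 6.23, 6.26 and 6.26 in controls, a difference of -0.12 on a low level. Top1, the type I enzyme, had 9.90, 9.85, 9.81, 9.89 and 9.87 in FS rats, against 10.03, 10.09, 9.94, 9.98 and 9.91 in controls, a difference of -0.12. Its other tested probe set differed by -0.11, with overlapping groups. Auts2, a neurodevelopmental gene whose product joins Polycomb complexes, had -0.13, and the other probe sets tested for Auts2 had -0.13 and -0.11, which likewise overlapped. The groups also overlapped for Auts2 under both scalings and for Top1 after centring.

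Nucleosome-binding proteins appeared with more than 1 probe set. Hmgn2 had 2 member probe sets (-0.11 and -0.12) and Nsbp1 also had 2 (-0.18 and -0.19). Ptma, which encodes the abundant acidic protein prothymosin alpha, had 2 (-0.12 and -0.12) and another tested probe set at -0.049. Hmgn2 and Ptma have many processed copies, and their probe sets may read the same transcripts, so the members of these pairs are not independent of each other. The values of Ptma were 11.25, 11.24, 11.29, 11.27 and 11.27 in FS rats, against 11.39, 11.40, 11.33, 11.41 and 11.38 in controls in its more widely separated probe set, and control replicate 3 was the lowest control in both.

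Cell cycle and centrosome genes numbered 11 by role. In the list of kinetochore, mitosis and cell cycle genes, 5 of 108 probe sets were members (4.63%, against 0.972% over all probe sets) and 2 were higher in every FS rat. Of the 108, 74 were below 0, against 49.7% of all tested probe sets, and the median difference was -0.027. All 5 members were separated under both scalings as well. Mcm7, a subunit of the replicative helicase, had 6.95, 6.95, 6.81, 6.90 and 6.67 in FS rats, against 7.12, 7.04, 7.01, 7.07 and 7.20 in controls. FS replicate 5 was lowest, and the difference was -0.23. Zwilch, of a kinetochore complex of the spindle checkpoint, had 6.23, 6.26, 6.31, 6.43 and 6.29 in FS rats, against 6.47, 6.49, 6.53, 6.67 and 6.58 in controls, a difference of -0.24. Pttg1, the securin gene, differed by -0.15, and Stag2, a cohesin subunit, by -0.088. These genes are mostly known from dividing cells, and the level of the list was low, with a median of 7.0.

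Cdkn1b, an inhibitor of the cell cycle, was a member as well, with 8.87, 8.85, 8.83, 8.82 and 8.84 in FS rats, against 8.94, 9.06, 8.89, 8.97 and 8.95 in controls and a difference of -0.12. In the cilium and centrosome list, 3 of 83 probe sets were members (3.61%, against 0.972% over all probe sets). They were Cep70, Cep290 and Cep350, and 1 other probe set of the list was higher in every FS rat. Centring left 2 separated probe sets in this list (2.41%), and quantile normalization left 1 (1.20%, against 0.781% over all probe sets).

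Clustered protocadherins had the largest share of members among the lists with at least 2 of them. Of 36 tested probe sets, 4 were members (11.1%, against 0.972% over all probe sets) and 1 was higher in every FS rat. Of the 36, 24 were below 0 (49.7% over all tested probe sets, not matched for level), and the median difference was -0.045. All 4 members belong to the beta cluster, and after quantile normalization 3 were still separated. Pcdhb15 had 8.86, 8.74, 8.75, 8.75 and 8.61 in FS rats, against 8.96, 8.96, 9.08, 8.93 and 8.94 in controls. FS replicate 1 was nearest to the controls, control replicate 3 was the highest, and the difference was -0.23. Pcdhb20 had 7.95, 7.87, 7.87, 7.89 and 7.93 in FS rats, against 8.14, 8.13, 8.31, 8.08 and 7.98 in controls, with a gap of 0.032 and a difference of -0.23. The 2 probe sets of Pcdhb16l differed by -0.15 and -0.11. The genes of the beta cluster are neighbours of very similar sequence, so their probe sets may share signal.

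Other surface molecules were members too. The teneurins are large adhesion proteins that guide the wiring of neurons across synapses, and Tenm3 had 9.45, 9.37, 9.35, 9.37 and 9.39 in FS rats, against 9.46, 9.48, 9.47, 9.80 and 9.91 in controls. Control replicates 4 and 5 were far above the other controls, which lay close to FS replicate 1, so the mean difference of -0.24 rested partly on these rats and was -0.19 without replicate 4 and -0.17 without replicate 5. Tenm4 had 9.78, 9.69, 9.84, 9.72 and 9.69 in FS rats, against 9.87, 9.86, 9.90, 10.01 and 9.88 in controls, with a difference of -0.16. Podxl, a sialomucin, differed by -0.21, and Mfge8, which bridges dying cells to phagocytes, by -0.17. Under both scalings Podxl stayed separated, whereas the groups overlapped for Mfge8. In the list of semaphorins, ephrins and plexins, 2 of 50 probe sets were members (4.00%, against 0.972% over all probe sets). They were the guidance genes Efnb1 (-0.19) and Sema5b (-0.12). Under each scaling 1 of the 50 was separated, and Sema5b overlapped under both.

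**Figure D3:**
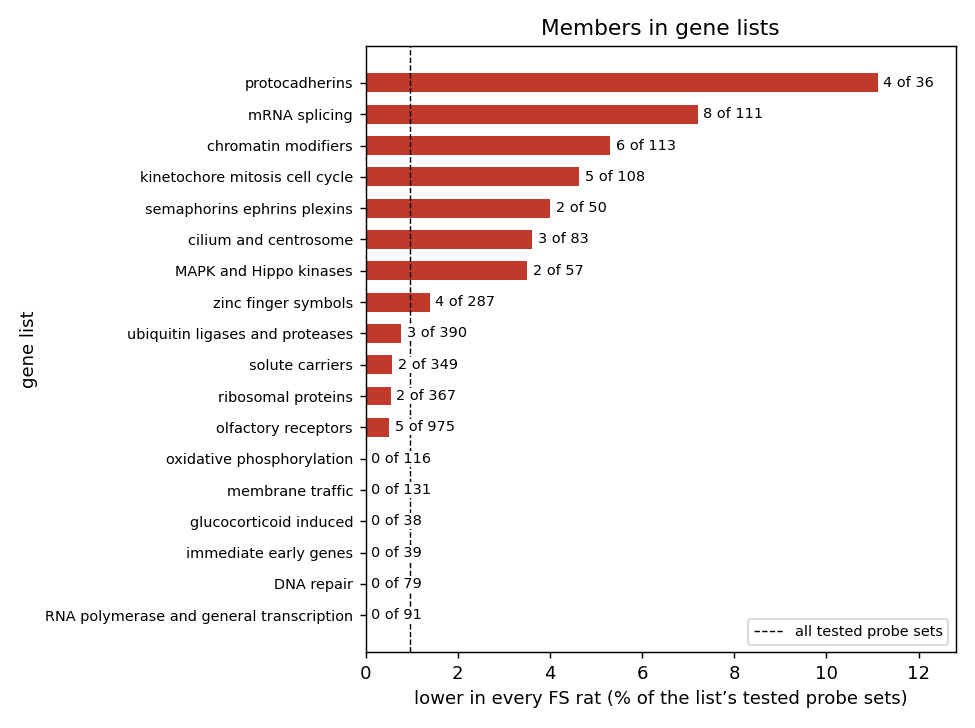
Bars give the share of each list's tested probe sets that were lower in every FS rat (%), with the number of members and of probe sets beside each bar, for lists with at least 2 members and for 6 lists with 0. The dashed line is the share over all tested probe sets (0.972%), which the protocadherins (4 of 36) and the splicing genes (8 of 111) exceed most in the values as deposited.

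Among the lists with 0 members were several that an acute stress calls to mind. Immediate early genes (39 probe sets) and glucocorticoid-induced genes (38) had 0 members and 0 probe sets higher in every FS rat, with medians of 0.0021 and 0.023. Membrane traffic had 0 members of 131, DNA repair 0 of 79, oxidative phosphorylation 0 of 116, and glutamate and GABA receptors 0 of 42. With 0.972% of all probe sets as members, a list of such a size would hold about 1 at most, so a count of 0 is close to the background. Ubiquitin ligases and proteases (3 of 390), ribosomal proteins (2 of 367), solute carriers (2 of 349) and olfactory receptors (5 of 975) held smaller shares than the background. After quantile normalization the olfactory receptors had 8 (0.821%) and the solute carriers 3 (0.860%), against 0.781% over all probe sets, so for both lists that order did not hold. The olfactory list lay at low levels, with a median of 5.24. Its share in the values as deposited (0.513%) was above the 0.244% of all tested probe sets with a level between 4 and 6.

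The ribosomal protein members were Rps27 and Rps29. Rps29 had the highest log2 RMA value among the members and the smallest difference (-0.034), and it was separated under neither scaling. Its values were 13.27, 13.24, 13.27, 13.24 and 13.27 in FS rats, against 13.31, 13.28, 13.28, 13.30 and 13.28 in controls. Its 3 other tested probe sets had differences between -0.037 and -0.032 and overlapped between the groups. The 5 olfactory receptor members had levels between 4.34 and 5.95, and Or2ak4e had 4.17, 4.20, 4.09, 4.28 and 4.30 in FS rats, against 4.30, 4.55, 4.68, 4.41 and 4.43 in controls. Or5p60b had 5.69, 5.66, 5.80, 5.80 and 5.71 in FS rats, against 5.99, 5.90, 6.06, 5.84 and 6.003 in controls, a difference of -0.22, with groups that overlapped after centring, and its other tested probe set differed by -0.12 with overlapping groups. Gfral, the hindbrain receptor of the stress cytokine GDF15, was also low on the array's scale, with 5.52, 5.48, 5.62, 5.18 and 5.46 in FS rats, against 5.81, 5.66, 5.72, 5.79 and 5.84 in controls. FS replicate 4 lay at 5.18, well below the rest, and the difference of -0.31 was -0.24 without that rat. The files used here hold no measure of background for these low values.

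Of the genes linked to glia, Slc1a3, the astrocytic glutamate transporter GLAST, had 11.57, 11.50, 11.53, 11.49 and 11.53 in FS rats, against 11.62, 11.60, 11.62, 11.63 and 11.66 in controls. The groups were 0.028 apart, or 0.024 and 0.047 under the scalings, and the difference was -0.10. It was the single member in the 10 lists of cell type markers, as 1 of 9 astrocyte probe sets. The centred mean of the astrocyte markers ran from -0.053 to 0.031 in FS rats and from 0.00067 to 0.028 in controls. Of the 9 genes, 6 were below 0, among them S100b (-0.13) and Gfap (-0.089, with an SD of 0.28 in FS rats). Gjb6 (0.060) and Gja1 (0.032) were above 0. Slc1a2, the other glutamate transporter of astrocytes, differed by 0.00094. The part of astrocyte number or content in these values was not tested. Members that are known from astrocytes or radial glia were also Nfia (-0.12), a transcription factor of gliogenesis, Gldc (-0.16), of the glycine cleavage system, Ptprz1 (-0.10) and Tril (-0.14), an accessory protein of toll-like receptors. Those 4 were picked after their names were seen, and only Nfia of them stayed separated under both scalings. Ptprz1 and Tril overlapped between the groups after quantile normalization, and Gldc under both scalings.

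All 10 marker lists overlapped between the groups. Oligodendrocyte markers ran from -0.098 to 0.076 in FS rats and from -0.29 to 0.14 in controls, and markers of medium spiny neurons from -0.53 to 0.21 in FS rats and from -0.50 to 0.49 in controls. Cortical excitatory markers ran from -0.049 to 0.015 in FS rats and from -0.10 to 0.053 in controls. Their part in the members' values was not tested.

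Signalling genes made up 18 members. Smad7, the inhibitory SMAD of TGF-beta signalling, had 7.04, 6.89, 6.96, 7.07 and 6.93 in FS rats, against 7.27, 7.10, 7.14, 7.29 and 7.11 in controls, a difference of -0.20. Nf2, the Hippo pathway regulator merlin, had 8.86, 8.81, 8.91, 8.88 and 8.92 in FS rats, against 9.13, 9.09, 8.95, 9.09 and 9.05 in controls, a difference of -0.19. Taok3, a kinase upstream of stress-activated MAP kinases, had 7.99, 7.91, 7.91, 7.89 and 7.89 in FS rats, against 8.03, 8.19, 8.06, 8.17 and 8.12 in controls, a difference of -0.19, and FS replicate 1 stood nearer the controls than its group. Together Taok3 and Nf2 were 2 of 57 probe sets (3.51%, against 0.972% over all probe sets) in the list of MAPK and Hippo kinases. S100a1, a calcium-binding protein gene among the members of highest level, had 11.19, 11.13, 11.01, 11.19 and 11.20 in FS rats, against 11.33, 11.22, 11.23, 11.37 and 11.33 in controls, a difference of -0.15, and its groups overlapped after centring. Nos1, the neuronal nitric oxide synthase, differed by -0.13 and overlapped under both scalings. Nrg1, a ligand of ErbB receptors, differed by -0.14 and overlapped after quantile normalization. Tyrosine phosphatases were represented by Ptpra, Ptpre, Ptpn1 and Ptprz1. Only Ptpre stayed separated under both scalings, while Ptpra and Ptpn1 overlapped under both and Ptprz1 after quantile normalization.

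Enzymes of metabolism made up 15 members, with differences between -0.28 and -0.11. Several handle lipids, namely Gpam, Soat1 (-0.14), which esterifies cholesterol, Scarb1 (-0.11), the receptor of high-density lipoprotein, Hsd17b7 (-0.13), of cholesterol synthesis, and Acadvl (-0.14), which begins the oxidation of very long fatty acids. Of these, only Gpam stayed separated under both scalings. Soat1 and Acadvl overlapped after quantile normalization, and Scarb1 and Hsd17b7 under both scalings. Maoa, the monoamine oxidase that degrades serotonin and noradrenaline, had 9.78, 9.61, 9.71, 9.70 and 9.67 in FS rats, against 9.80, 9.80, 9.87, 9.78 and 9.82 in controls. FS replicate 1 lay just under the lowest control, the difference was -0.12, and the groups overlapped under both scalings. Gldc had a low FS replicate 2 (7.72), against 7.92 to 7.98 in the other FS rats.

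Transcription factors made up 11 members. Epas1, which encodes HIF-2 alpha, had 10.10, 10.13, 10.13, 10.11 and 10.20 in FS rats, against 10.29, 10.23, 10.23, 10.26 and 10.29 in controls, a difference of -0.13. Cry2, a repressor of the circadian clock, had 9.91, 9.78, 9.91, 9.85 and 9.86 in FS rats, against 9.95, 9.96, 9.95, 9.95 and 9.94 in controls, a difference of -0.085, and its controls spread less than those of most genes. Cry2 was not separated after quantile normalization. Enah, which encodes a regulator of actin filament growth, was also among the members of highest level, with 10.62, 10.53, 10.59, 10.61 and 10.63 in FS rats, against 10.66, 10.71, 10.71, 10.66 and 10.67 in controls, a difference of -0.083, and it overlapped slightly after quantile normalization. Other roles were trafficking, secretory pathway and mitochondria (14 members), ubiquitin, SUMO and protein folding (9), ribosome, translation and RNA decay (9), secreted signals and receptors (8), and transport and channels (4), while 12 members were not assigned. Rnf10, a ubiquitin ligase gene, had 10.40, 10.37, 10.35, 9.74 and 10.36 in FS rats, against 10.55, 10.45, 10.42, 10.51 and 10.48 in controls. FS replicate 4 was far below all other rats, and the mean difference of -0.24 shrank to -0.11 without that rat.

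The level of a probe set is its log2 RMA value, which depends on its probes as well as on its transcript. The members were concentrated at middle to high levels, with a median of 8.53, against 7.84 over the tested probe sets. Between 8 and 10 lay 107 of the 178 members (60.1%), while 34.2% of the tested probe sets lay there, so that 1.71% of the probe sets in this range were members. With arrays centred on the median this share was 1.28%, and after quantile normalization it was 0.847%, close to the 0.781% over all levels, so the concentration was not kept under that scaling. The share was 0.244% between 4 and 6, 0.627% between 6 and 8, and 0.907% above 10. Probe sets higher in every FS rat were distributed differently, with 109 between 6 and 8 and 19 between 8 and 10, and their median level was 7.02.

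**Figure D4:**
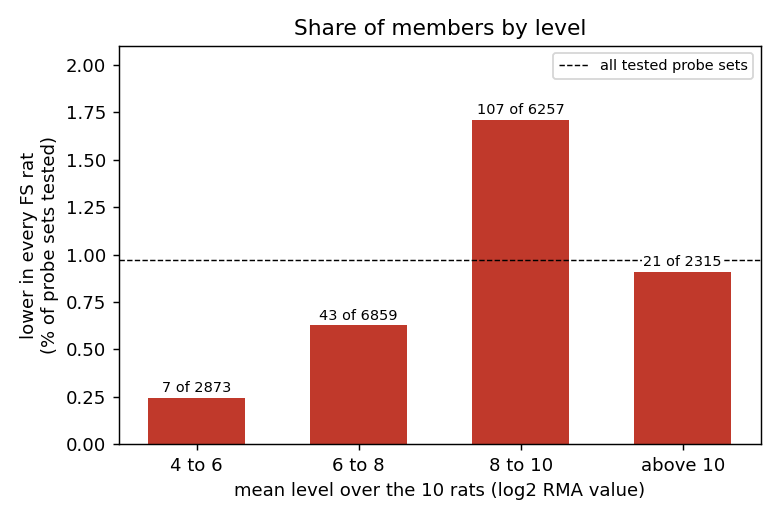
Bars give the share of tested probe sets that were lower in every FS rat (%), for 4 ranges of the mean level over the 10 rats (log2 RMA value), with members and probe sets tested above each bar. The dashed line is the share over all levels (0.972%), and the range from 8 to 10 reaches 1.71% in the values as deposited.

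The genes of the members were long. In RefSeq their median length was 45.4 kb (175 members), against 19.6 kb over the tested probe sets and 11.1 kb for those higher in every FS rat. Length goes with level on this array, but the members were the longer ones also within ranges of level, at 49.7 kb against 28.7 kb between 8 and 10, 31.9 kb against 15.4 kb between 6 and 8, and 57.0 kb against 27.2 kb above 10. Between 4 and 6, where 7 members lay, the order was the opposite, at 0.942 kb against 7.68 kb.

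Promoters were found in RefSeq for 148 of the 174 genes, and they were compared with those of 13793 tested genes and with all 27457 in the table. The median number of CG dinucleotides in the 300 bases was 21 in members, 16 in tested genes and 7 in all promoters. Within the level range from 8 to 10 the medians were 22 in members and 23 in tested genes, so the excess was not seen at matched level there. Between 6 and 8 they were 19 in members and 13 in tested genes, and above 10 they were 26 in members and 24 in tested genes. The GC box (GGGCGG, or CCGCCC on the other strand) occurred in 60.1% of members, 50.2% of tested genes and 34.9% of all promoters. The ETS site (CCGGAAG or CTTCCGG) occurred in 18.2%, 12.7% and 9.22%. The cyclic AMP response element (TGACGTCA, the same on both strands) occurred in 5 members (3.38%), namely Slc38a6, Coa7, Tenm3, Zfp458 and Nos1, and in 2.44% of tested genes and 1.91% of all promoters. The short glucocorticoid receptor sequence (TGTTCT or AGAACA) occurred in 11.5%, 15.2% and 20.1%. Of the 4 promoters printed above, those of Rnf135 and Mcm7 hold the GC box. These shares carry no test.

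Where a gene has more than 1 probe set, the others were not selected by the rule, but they are not independent of the member. Of the 174 genes, 20 had another tested probe set, and 4 of these had 2 members each. The 34 further probe sets, which were not members, had a negative difference in 29 cases and a positive one in 5, with a median of -0.067, against 0.00044 over the tested probe sets. After quantile normalization 30 were negative and the median was -0.063. They come from the same 10 RNA samples, so they repeat the reading and not the experiment, and they are concentrated in few genes. Those of Dppa3, Rps29, Hnrnpa1 and Ptma may also share sequence with the member, so the count of 29 gives no independent support. Sipa1l3, which encodes a regulator of Rap GTPases, has 8 tested probe sets, all with negative differences between -0.15 and -0.055, and 1 of them is a member. Its member had 9.63, 9.64, 9.73, 9.71 and 9.73 in FS rats, against 9.81, 9.79, 9.84, 9.80 and 9.77 in controls.

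The exceptions were Hsd17b7, whose other probe set differed by 0.096, Rnf135 (0.077 in 1 of 2 others), Cspp1, a centrosome gene with 0.016 and 0.0011 in 2 of 5 others, and Asxl3 (0.0042). The other probe set of Hsd17b7 had 7.06, 7.25, 7.25, 7.18 and 7.09 in FS rats, against 7.06, 7.08, 7.04, 7.07 and 7.11 in controls. FS replicates 2, 3 and 4 lay above all controls, and FS replicate 1 lay below 4 of the 5.

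**Figure D5:**
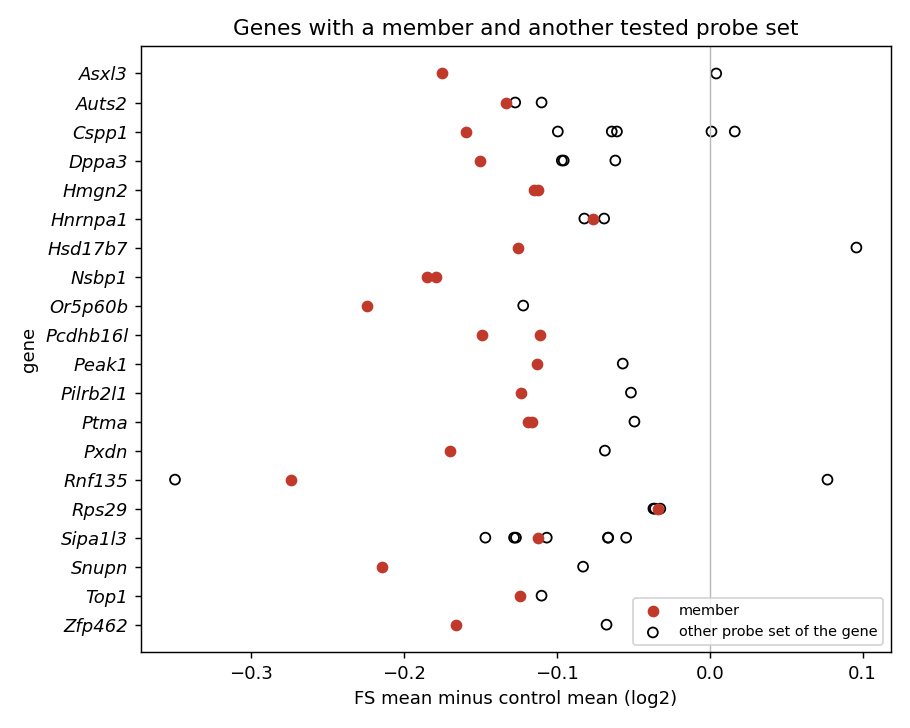
The FS mean minus the control mean (log2) is given on the x axis for the 20 member genes that have another tested probe set or a second member, with members as filled red circles and other probe sets as open circles. Of the 34 open circles, 29 lie below 0, and the 5 above 0 belong to Hsd17b7, Rnf135, Cspp1 and Asxl3. Some open circles may read the same sequence as their member.

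The members were spread over all 20 autosomes and the X chromosome. On chromosome 12, 14 of 548 tested probe sets were members (2.55%, against 0.972% over all probe sets). Chromosome 18 held 9 of 387 (2.33%), including the 3 member probe sets of protocadherins placed there. Chromosome 1 held 30 members, the largest number, out of 2429 probe sets (1.24%). Chromosomes 19 and 20 held 2 each (0.423% and 0.382%).

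By the rule, every FS rat has to average below every control over the members, so only the sizes of these averages are described. After each probe set was centred on its mean over the 10 rats, the members averaged -0.058, -0.079, -0.068, -0.083 and -0.056 in FS replicates 1 to 5, against 0.070, 0.070, 0.046, 0.087 and 0.070 in control replicates 1 to 5. All FS averages lay close together, and control replicate 3 was the lowest control. That rat was the control nearest to the FS group in 66 of the 178 members, while the other controls were nearest in 22 to 35. Among FS rats, replicate 1 was nearest to the controls in 46 members and replicate 2 in 27. Once group means were removed, pairs of members correlated over the 10 rats with a median of 0.050, against 0.0056 for tested probe sets, and 11.96% of member pairs exceeded 0.5, against 10.4% of tested pairs, while 5.95% lay below -0.5, against 9.74% of tested pairs. Correlations among members were thus slightly more positive than among tested probe sets, and all values of a rat come from 1 array.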

How the data were processed

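RNA of 10 PFC samples, 5 of FS rats and 5 of controls, was measured on whole-transcript arrays, with 1 array per rat, and groups were taken from the sample labels. The authors used oligo 1.58.0 and deposited log2 values after RMA, which corrects the background, gives all arrays 1 distribution and summarises the probes of a probe set. RMA narrows differences between arrays and tends to compress small ones. For the probe sets, the genome build was not given in the sources used here. Of 29214 probe sets, the platform annotation gives 1 symbol to 18644, several to 962 and none to 9608. By gene ID, 18460 were found in RefSeq GRCr8, and 0 symbols changed.

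Separation between the groups was counted in Python 3.11.15 over the 18304 probe sets whose mean exceeded 4 and that have 1 symbol. Groups were compared (FS minus control) in limma 3.58.1 (R 4.3.3), with Benjamini–Hochberg adjustment. The functions were tested on simulated data. The members and the gene lists were chosen with earlier results of these data known, so they give no independent support. The text names members with the 20 widest gaps, the 15 largest differences or the 10 highest levels, those at the threshold (5 on each side), some of those in a gene list or with a further probe set, and others by role, which were grouped after their names were seen. Alternatives changed the scaling, the filter, the gap, the probe sets per gene, the rats included, the variance trend and the block. Same-numbered rats correlated over 0.1, with group means removed, in 2 of 5 cases, and the fit used has no block.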

Additional observations from a re-analysis of the deposited data

Results flagged for a closer look

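Within each member, the values of a group were checked for a rat that lay apart from the other 4 by Dixon's ratio. Of 356 checks, 26 found one, where chance gives about 1 in 20. In 21 of the 26 the rat lay on the side away from the other group and in 5 it lay towards it. These are the values that chose the members, and a rat far towards the other group would seldom leave a probe set separated, so neither the number nor the split is read further.

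On the far side, FS replicate 2 was lowest of the FS rats in Ndp (8.65, others 8.77 to 8.80), Nadk (8.80, others 8.86 to 8.89), Mocs2 (8.00, others 8.31 to 8.35) and Gldc (7.72, others 7.92 to 7.98). FS replicate 3 was lowest of the FS rats in Dppa3l2 (6.22, others 6.43 to 6.45), Dnpep (8.57, others 8.69 to 8.71), Dmxl1 (10.55, others 10.62 to 10.63) and Zfp458 (7.73, others 7.97 to 8.03). FS replicate 4 was lowest of the FS rats in Cfap141 (7.22, others 7.34 to 7.38), Rnf10 (9.74, others 10.35 to 10.40), Prpf3 (7.90, others 8.09 to 8.13), Dppa3 (6.19, others 6.44 to 6.53) and Chd1 (7.33, others 7.40 to 7.42). Control replicate 1 was highest of the controls in Rps27 (6.74, others 6.27 to 6.36). Control replicate 2 was highest of the controls in Hmgxb4 (8.52, others 8.38 to 8.39). Control replicate 3 was highest of the controls in Pcdhb15 (9.08, others 8.93 to 8.96). Control replicate 4 was highest of the controls in Egfl7 (8.30, others 8.14 to 8.18), Sf3b2 (8.86, others 8.68 to 8.73) and Sema5b (8.31, others 8.06 to 8.12). Control replicate 5 was highest of the controls in Runx2 (8.40, others 8.22 to 8.26) and Pdcd11 (8.18, others 8.04 to 8.08).

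On the near side, FS replicate 1 was highest of the FS rats in Taok3 (7.99, others 7.89 to 7.91). FS replicate 2 was highest of the FS rats in Epb41l2 (9.79, others 9.76 to 9.76). FS replicate 3 was highest of the FS rats in Eya3 (8.54, others 8.45 to 8.47). Control replicate 2 was lowest of the controls in Nrg1 (7.82, others 7.90 to 7.92). Control replicate 3 was lowest of the controls in Ptma (11.35, others 11.43 to 11.44). FS replicate 2 is also the rat with high choroid plexus and meningeal markers (centred means 1.63 and 0.89), and the part of that tissue in its values was not tested.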

How the results depend on the processing

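The 178 members depended on the scaling. With arrays centred on their median, 136 probe sets were lower and 218 higher in every FS rat, and 123 of the 178 were still separated. With quantile normalization the counts were 143 lower and 172 higher, and 94 of the 178 were still separated. Under both, 85 of the 178 remained, including 20 of the 24 with a gap of at least 0.05, and all 178 kept a negative difference under either scaling, with a median of -0.12. For centring this was fixed in advance, because it moves every difference by the same small amount. With a gap of at least 0.05 required, 24 probe sets were left, and 37 in the higher direction. A filter at a mean above 6 gave 171 and no filter 183, and 1 probe set per gene gave 167.

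Leaving out each rat in turn gave between 237 (without FS replicate 4) and 364 (without control replicate 3) probe sets, as 1 rat fewer has to be separated. The counts were above 1.5 times 178 without FS replicates 1, 2, 3 or 5 (323, 272, 343 and 293) and without control replicates 2, 3 or 5 (268, 364 and 361). In the opposite direction the counts ran from 241 (without FS replicate 4) to 302, apart from 617 without control replicate 5, where limma gave unadjusted p under 0.05 for 948 lower and 1641 higher probe sets. In limma, 0 probe sets passed under every alternative, the replicate block included (0 calls, with 773 lower and 1030 higher at unadjusted p under 0.05), except without control replicate 2, where 1 probe set passed that is not a member (0 to 1 calls when rats were left out in turn). Of 444 comparisons of 37 named probe sets with their alternatives, 442 moved by less than the spread between rats and 0 reversed. Where a rat was left out, a reversal was not possible, because the rule puts every FS value of a member below every control value. Centring could not reverse a member either. Under quantile normalization Top2a moved to -0.16 and Rps29 to -0.0049. The number of arrays, and the low values of the olfactory receptor genes, limit what these data resolve.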

Other observations

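Among probe sets with no symbol in the annotation and a mean above 4 (8739), 47 were lower in every FS rat (0.538%) and 160 were higher (1.83%). Among those with several symbols (934), 9 were lower (0.964%) and 4 were higher (0.428%). The tested probe sets with 1 symbol had 178 in each direction. No gene was named from either class.

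A few transcripts linked to sensory or germ cell programs were members in the PFC. Dppa3, known from oocytes and early embryos, had a member probe set at 6.43 ± 0.14 in FS rats and 6.58 ± 0.030 in controls (SD, n = 5 each), and its 3 other tested probe sets differed by -0.097, -0.096 and -0.062 with overlapping groups. The Dppa3 probe sets are likely to share sequence with each other and with Dppa3l2, so their values are not independent readings.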
